A study of Rattus norvegicus with 35 samples.

Results

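The peroxisomal beta-oxidation genes of rat liver were followed across 6 dose groups of TBB (2-ethylhexyl-2,3,4,5-tetrabromobenzoate), a flame retardant that is an ester of a brominated benzoic acid. The set was given as 9 genes (Ehhadh, Acaa1a, Hsd17b4, Decr2, Ech1, Eci2, Pex11a, Crat and Abcd3), and a gene was measured where a probe set carried its symbol alone. By that rule 8 of the 9 genes were measured on 9 probe sets, out of 14217 genes with such a probe set, and Acaa1a, the thiolase gene, had none and is not analysed here. Where a gene had more than 1 probe set, the probe set with the highest mean over the 35 arrays stood for it. This applied to Pex11a alone, whose probe sets averaged 8.42 and 6.12 on the log2 scale, and its probe set was selected on this mean level, the measured value that the rule used. The genes were listed with earlier results of these arrays known, among them a higher level of Ehhadh at 550 mg/kg than in vehicle. The Ehhadh values and p-values in every comparison or slope that uses the 550 mg/kg arrays are therefore a description and no independent support. The counts of called members given below include Ehhadh.

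Peroxisomes shorten fatty acids that mitochondria handle poorly, such as very long and branched chains, by a beta-oxidation pathway with its own enzymes. In each round a bifunctional enzyme hydrates and dehydrogenates the chain, and a thiolase splits it, while auxiliary reductases and isomerases prepare unsaturated chains. In rodent liver these genes are known as targets of PPARalpha, a nuclear receptor for fatty acids and fibrate drugs, and their joint rise together with growth in peroxisome number is known as peroxisome proliferation. The comparison of the doses asks how far this set moved with TBB. The transcript levels measured here do not count peroxisomes.

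Livers came from male Sprague Dawley rats aged 7 weeks when dosing began. They were dosed by gavage in corn oil at 5 ml/kg on 5 consecutive days, and the left liver lobe was taken 1 day after the last dose. The groups received corn oil alone (vehicle, n = 5) or TBB at 0.05, at 0.55, at 5.50, at 55 and at 550 mg/kg (n = 6 each). Arrays are named by group and replicate number, and the labels do not state that each came from its own animal. The p-values therefore rest on the spread among arrays, part of which may be technical. Levels are log2 values, 1 unit of which is a doubling, and differences are on the same scale with their standard error (SE). All adjusted p-values come from limma with Benjamini-Hochberg adjustment over 31042 probe sets, with adjusted p under 0.05 as the threshold.

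Any pair of arrays correlated across probe sets at 0.988 to 0.996. The 11 hepatocyte markers lay at or above percentile 94 of all probe sets in vehicle. At 550 mg/kg against vehicle, 1 of these 11 was called, lower (Apoa1, -0.51 ± 0.06). The mean log2 level over the list ran from 12.8175 to 12.9945 at 550 mg/kg, against 12.996 to 13.1236 in vehicle. These ranges all but met, and at 55 mg/kg the mean level ran from 12.85 to 13.16. All 8 measured Kupffer cell markers (of 10 listed) and all 3 measured erythroid markers (of 5 listed) had negative differences, with none called. The negative sign was not particular to 550 mg/kg. At 0.05, 0.55, 5.50 and 55 mg/kg, 7, 8, 7 and 7 of the 8 Kupffer cell markers were negative against the same vehicle arrays. All 3 erythroid markers were negative at each of these doses, but by less than at 550 mg/kg in the median. Their median difference was -0.12, -0.07, -0.20 and -0.25 at these doses, and -0.46 at 550 mg/kg. The mean levels of the Kupffer cell and erythroid markers ran from 8.12 to 8.79 and from 7.40 to 7.83 at 550 mg/kg, against 8.51 to 8.90 and 7.77 to 8.36 in vehicle. Endothelial, stellate, cholangiocyte, lymphocyte and neutrophil markers had no call. In bulk tissue, fewer cells of a type and less RNA per cell cannot be told apart. The part of these markers in the results below was not tested.

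At 550 mg/kg 2 of the 8 measured genes rose against vehicle, Ehhadh and Decr2, and none fell. Over all probe sets tested, 0.354% rose and 0.145% fell. The other 6 genes also had positive differences, from 0.05 to 0.49, without passing, and 6 of the 8 reached an unadjusted p under 0.05, as did 4.45% of all probe sets in that direction. The median difference of the 8 genes was 0.27, against -0.008 over all 14217 genes. Only Ehhadh exceeded a change of 1.5-fold. In 3 of the 8 genes (Ehhadh, Decr2 and Hsd17b4) all 6 arrays at 550 mg/kg lay above all 5 vehicle arrays, a pattern that 0.796% of all probe sets showed.

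**Figure D1:**
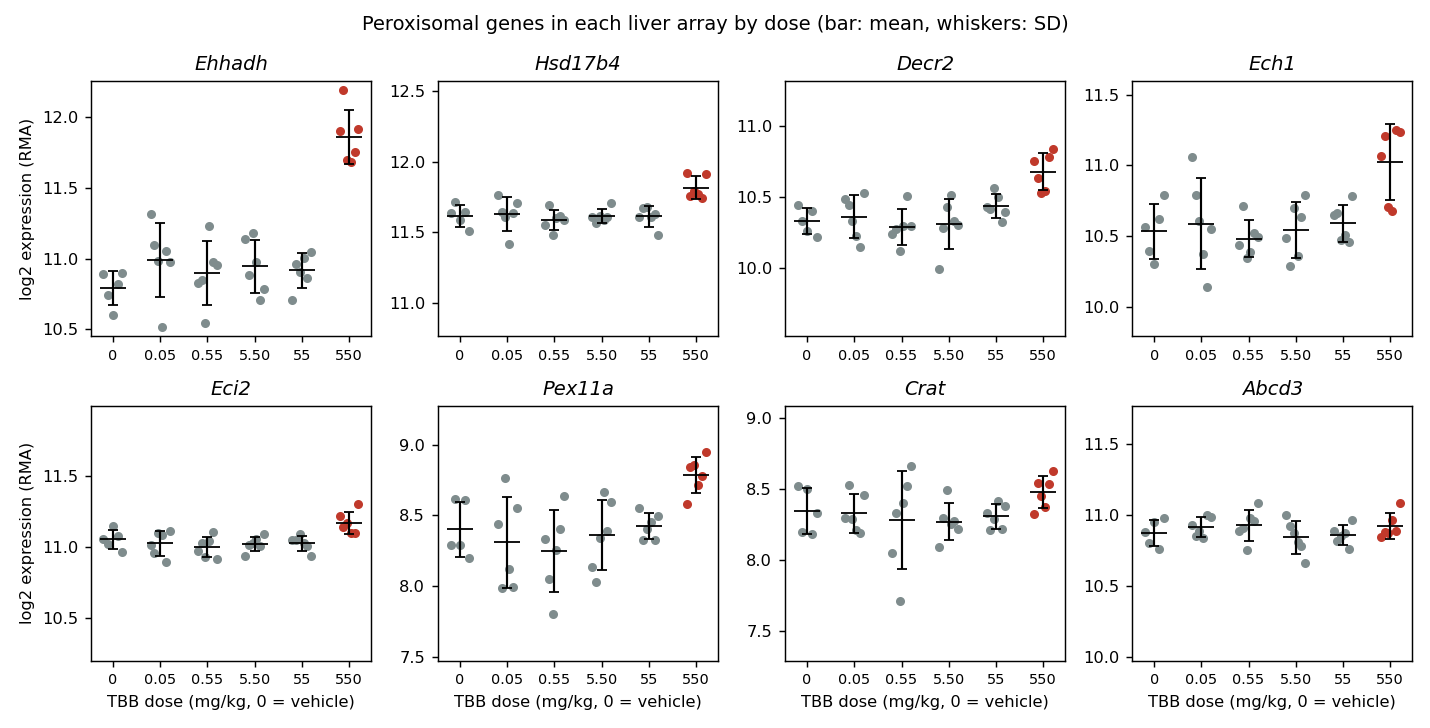
Log2 expression of the 8 measured genes in each of the 35 arrays (points) by TBB dose on an ordered, unscaled axis from vehicle (0) to 550 mg/kg, with the group mean (bar) and SD (whiskers). Every panel spans the same number of log2 units. Ehhadh stands clear of the other groups at 550 mg/kg, where its lowest array is at 11.68 and the highest of the 29 other arrays is at 11.31.

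Ehhadh encodes the peroxisomal bifunctional enzyme that hydrates and dehydrogenates straight-chain acyl-CoAs. Its values at 550 mg/kg ran from 11.68 to 12.19 with a median of 11.83. The 5 vehicle arrays were at 10.89, 10.74, 10.60, 10.82 and 10.90. The groups were far from touching, and all 6 arrays at 550 mg/kg also lay above each of the 29 other arrays, as was the case for 0.171% of probe sets. The mean was 11.86 ± 0.19 (SD, n = 6) at 550 mg/kg and 10.79 ± 0.12 (SD, n = 5) in vehicle, a difference of 1.07 ± 0.11 (adjusted p = 4.2e-07). Ehhadh ranked 4 by p-value among all probe sets. No alternative processing removed this call, and its adjusted p ranged from 2.5e-07 to 2.0e-04.

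Hsd17b4 encodes the other bifunctional enzyme of the peroxisome, which serves branched chains and bile acid precursors. Its values at 550 mg/kg ran from 11.74 to 11.92 with a median of 11.78, against 11.64, 11.72, 11.59, 11.64 and 11.51 in vehicle. The groups did not overlap, but the gap between them was narrow. The difference of 0.20 ± 0.05 did not pass (adjusted p = 0.11, 95% interval 0.09 to 0.31). Of 20 alternatives 1, the trend and robust form of the variance moderation, left it just inside the threshold. Over the 20 its adjusted p ran up to 0.306. In mammals both enzymes carry out the same steps of the cycle, and in these arrays Ehhadh differed by 2.09-fold and Hsd17b4 by 1.15-fold. The difference between these 2 changes was not tested.

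Decr2, Ech1 and Eci2 act on double bonds of unsaturated acyl-CoAs. Decr2, the peroxisomal dienoyl-CoA reductase, ran from 10.53 to 10.84 at 550 mg/kg with a median of 10.69, against 10.44, 10.33, 10.26, 10.40 and 10.22 in vehicle. All treated arrays were above all vehicle arrays, and the difference was 0.35 ± 0.08, a rise of 1.27-fold (adjusted p = 0.031). Leaving out any 1 of 7 arrays removed the call (replicates 2, 3 or 5 of vehicle, or 1, 2, 5 or 6 of 550 mg/kg), with adjusted p up to 0.105. It was also lost with only the 2 groups fitted (adjusted p = 0.097) or with the replicate number as a block (adjusted p = 0.081).

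Ech1, a dienoyl-CoA isomerase found in peroxisomes and mitochondria, ran from 10.68 to 11.25 at 550 mg/kg with a median of 11.14, against 10.57, 10.39, 10.30, 10.62 and 10.79 in vehicle. Replicates 1, 2, 5 and 6 at 550 mg/kg lay above every vehicle array, while replicates 3 and 4, at 10.71 and 10.68, lay within the vehicle range. The difference of 0.49 ± 0.13 missed the threshold (adjusted p = 0.070), and it was inside it when replicate 3 (0.55, adjusted p = 0.037) or replicate 4 (0.56, adjusted p = 0.035) of 550 mg/kg was left out. With all arrays kept, it also passed without the 40% dimmest probe sets (adjusted p = 0.049) and with the mean of a gene's probe sets (adjusted p = 0.044). These were 4 of 20 alternatives, over which the adjusted p of Ech1 ran up to 0.247. Eci2, an enoyl-CoA isomerase, ran from 11.10 to 11.30 at 550 mg/kg with a median of 11.16, against 11.05, 11.02, 11.15, 11.08 and 10.96 in vehicle. The groups overlapped and the difference of 0.12 ± 0.05 did not pass (adjusted p = 0.44).

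Pex11a encodes a membrane protein that elongates and divides peroxisomes. Its brighter probe set ran from 8.58 to 8.95 at 550 mg/kg with a median of 8.81, against 8.29, 8.62, 8.29, 8.61 and 8.20 in vehicle. All arrays at 550 mg/kg except replicate 1 were above all vehicle arrays. The difference of 0.38 ± 0.13 did not pass (adjusted p = 0.27), nor did that of the dimmer probe set, 0.47 ± 0.15 (adjusted p = 0.21), where the groups did not overlap.

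Crat and Abcd3 serve the passage of substrates and products across the membrane, Crat as an enzyme and Abcd3 as a transporter. Crat, the carnitine acetyltransferase that readies short chains for export, had values from 8.33 to 8.63 at 550 mg/kg with a median of 8.49, against 8.52, 8.20, 8.50, 8.18 and 8.33 in vehicle. Abcd3, an ABC transporter that imports acyl-CoAs, had values from 10.85 to 11.08 at 550 mg/kg with a median of 10.88, against 10.88, 10.80, 10.95, 10.76 and 10.98 in vehicle. In both genes the groups overlapped through most of their range. The difference was 0.13 ± 0.11 for Crat (95% interval -0.09 to 0.35) and 0.05 ± 0.06 for Abcd3 (95% interval -0.07 to 0.17), with adjusted p of 0.81 and 0.88. For Abcd3 the interval leaves room for a rise of at most 0.17.

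**Figure D2:**
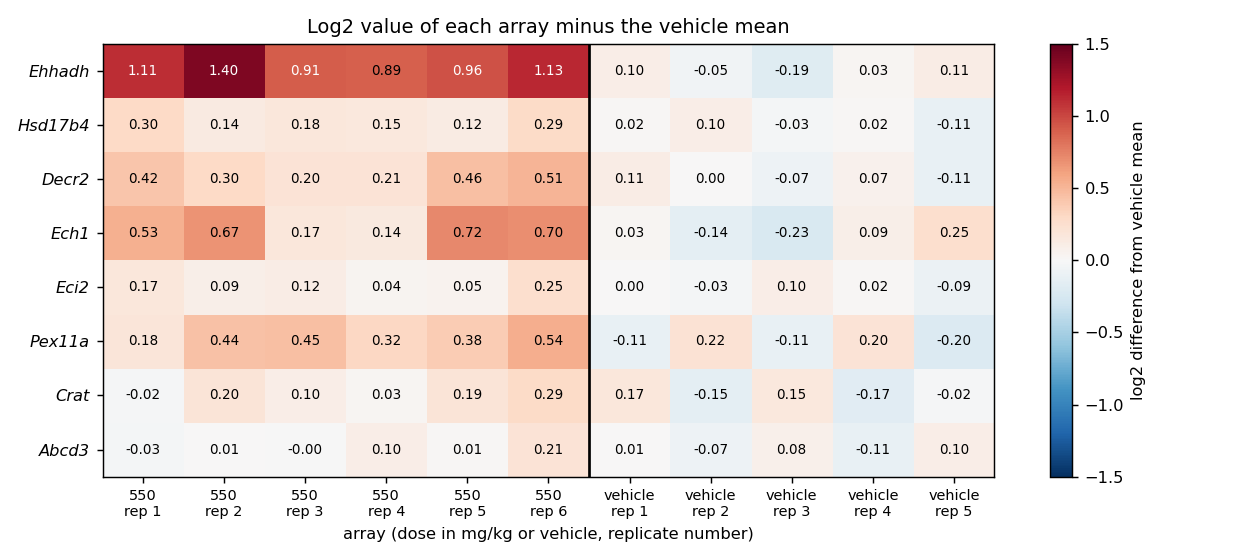
Log2 value of each gene (rows) in the 6 arrays at 550 mg/kg and the 5 vehicle arrays (columns) minus the mean of the vehicle arrays. Ehhadh is at least 0.89 above the vehicle mean in every array at 550 mg/kg, whereas Ech1 is high in 4 of them and within the vehicle range in replicates 3 and 4.

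The arrays at 550 mg/kg were not ordered alike for every gene. Replicate 6 had the highest value of the group for Decr2, Eci2, Pex11a (brighter probe set), Crat and Abcd3, and it was the second highest for Ehhadh, Hsd17b4 and Ech1. On the dimmer Pex11a probe set replicate 6 was at 6.49, and replicate 3 was the highest at 6.73. Replicate 2 had the highest Ehhadh value, 12.19, while its Hsd17b4 value was 0.14 above the vehicle mean of Hsd17b4. Replicate 4 had the lowest Ehhadh and Ech1 values of the group. The differences of replicate 6 from the vehicle mean ran from 0.21 (Abcd3) to 1.13 (Ehhadh).

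The promoter sequences of the members are shown because PPARalpha is known to bind a direct repeat of the hexamer AGGTCA with a single base between the copies, written AGGTCANAGGTCA. RefSeq promoters of the GRCr8 build, 250 bases before to 50 bases after the annotated start, were listed for 8 of the 9 genes (Ech1 was not listed). Both strands were searched. The window of Ehhadh, the gene with the largest change, and that of Decr2, the other called gene, held no copy of the hexamer, whereas those of Hsd17b4 and Eci2 each held 1, shown in capitals on the given strand (TGACCT is the same hexamer read from the opposite strand).
Ehhadh, chr11:92746159-92746458, strand +: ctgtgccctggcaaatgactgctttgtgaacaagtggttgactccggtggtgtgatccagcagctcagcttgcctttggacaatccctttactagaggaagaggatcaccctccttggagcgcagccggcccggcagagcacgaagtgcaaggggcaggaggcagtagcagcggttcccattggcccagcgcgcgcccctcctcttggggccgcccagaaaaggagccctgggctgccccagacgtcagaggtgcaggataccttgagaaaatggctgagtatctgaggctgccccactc
Decr2, chr10:15617387-15617686, strand -: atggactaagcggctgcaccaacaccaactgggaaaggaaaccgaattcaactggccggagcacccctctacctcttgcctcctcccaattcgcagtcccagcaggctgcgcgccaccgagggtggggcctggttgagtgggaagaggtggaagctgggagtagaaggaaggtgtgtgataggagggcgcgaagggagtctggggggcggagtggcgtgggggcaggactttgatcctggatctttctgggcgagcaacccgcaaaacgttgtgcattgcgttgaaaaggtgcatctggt
Hsd17b4, chr18:45515177-45515476, strand +: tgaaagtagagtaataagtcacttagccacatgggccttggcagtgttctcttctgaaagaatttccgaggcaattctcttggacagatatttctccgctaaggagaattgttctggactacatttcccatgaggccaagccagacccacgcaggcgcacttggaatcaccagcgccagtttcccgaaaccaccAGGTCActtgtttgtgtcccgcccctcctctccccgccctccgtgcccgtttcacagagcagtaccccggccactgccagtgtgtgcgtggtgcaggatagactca
Eci2, chr17:30075516-30075815, strand +: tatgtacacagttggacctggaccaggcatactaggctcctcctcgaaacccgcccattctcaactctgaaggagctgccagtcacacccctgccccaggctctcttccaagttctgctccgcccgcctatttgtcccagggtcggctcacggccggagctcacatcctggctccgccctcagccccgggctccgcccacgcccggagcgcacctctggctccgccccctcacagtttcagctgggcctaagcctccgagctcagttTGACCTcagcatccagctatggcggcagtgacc
The hexamer was present in 2 of the 8 member windows and in 16.2% of the 33469 promoter windows in the table. No member window held the full repeat, which 0.0538% of all windows held.

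The stretch of each measured member that came closest to the repeat is given next, read 5′ to 3′ in the orientation of the motif, with the bases that match it in capitals.
Ehhadh: AcGTCAgAGGTgc
Hsd17b4: gaGTaAtAaGTCA
Decr2: AGGcaAgAGGTag
Eci2: cGGcCggAGcTCA
Pex11a: AGaTaggcGGTCc
Crat: AGGaCAccGGTCA
Abcd3: AaGcCAaAGtcCA
Crat had the closest stretch, with 2 mismatches in 12 fixed letters, beginning at position -223 from the start. A stretch at least that close was found in 3.77% of all windows. Ehhadh had 3 mismatches in a stretch that begins at position -8, and 24.9% of all windows had one at least as close. Hsd17b4, Decr2, Eci2 and Abcd3 had 4 mismatches, and 80.3% of all windows had a stretch at least as close. Pex11a had 5, and 99.9% of all windows had one at least as close. The windows do not cover more distant sequence, and the relation of these matches to the changes in expression was not tested.

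Below the highest dose no member passed at any dose against vehicle (limma), and 0 of the 8 genes reached even an unadjusted p under 0.05 at 0.05, 0.55, 5.50 or 55 mg/kg. Over all probe sets, 0%, 0%, 0% and 0.00644% rose at these doses by adjusted p, and 6.05%, 3.86%, 4.95% and 4.2% had an unadjusted p under 0.05. The member differences from vehicle ran from -0.09 to 0.20 at 0.05 mg/kg and from -0.15 to 0.11 at 0.55 mg/kg. They ran from -0.07 to 0.15 at 5.50 mg/kg and from -0.04 to 0.12 at 55 mg/kg. No probe set fell at any of these doses by adjusted p. All 4 comparisons share the same 5 vehicle arrays.

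Ehhadh averaged 10.79 ± 0.12 in vehicle (SD, n = 5), 10.99 ± 0.26 at 0.05, 10.90 ± 0.22 at 0.55, 10.95 ± 0.19 at 5.50 and 10.92 ± 0.12 at 55 mg/kg (SD, n = 6 each). Vehicle had the lowest group mean, and the 4 lower doses lay 0.11 to 0.20 above it, about the SD of these groups or less, with no order by dose. At 55 mg/kg the difference was 0.12 ± 0.11 with a 95% interval of -0.11 to 0.35, which does not reach the 1.07 of the next dose. Decr2, Ech1 and Pex11a had their second highest mean at 55 mg/kg. That of Decr2 was 10.44 ± 0.08 (SD, n = 6) and exceeded vehicle by 0.11 ± 0.08 without passing. In 7 of the 8 genes 550 mg/kg had the highest group mean. The exception was Abcd3, with 10.92 ± 0.09 at 550 mg/kg and 10.93 ± 0.11 at 0.55 mg/kg (SD, n = 6 each).

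The step between the highest doses was read directly as 550 against 55 mg/kg. Ehhadh rose by 0.94 ± 0.11 (adjusted p = 2.7e-06), the single call among the 8 genes, where 0.577% of all probe sets rose and 0.110% fell. All 8 differences were positive, with a median of 0.22, and 4 genes (Ehhadh, Hsd17b4, Eci2 and Pex11a) had all 6 arrays at 550 mg/kg above all 6 at 55 mg/kg, as did 0.825% of probe sets. Hsd17b4 differed by 0.20 ± 0.05 (adjusted p = 0.055). It passed under 5 of 21 alternatives, among them the removal of the dimmest probe sets (adjusted p = 0.030) and the fit without variance moderation (adjusted p = 0.028). Over all 21 its adjusted p ran up to 0.17. Both comparisons of 550 mg/kg rest on the same 6 treated arrays.

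**Figure D3:**
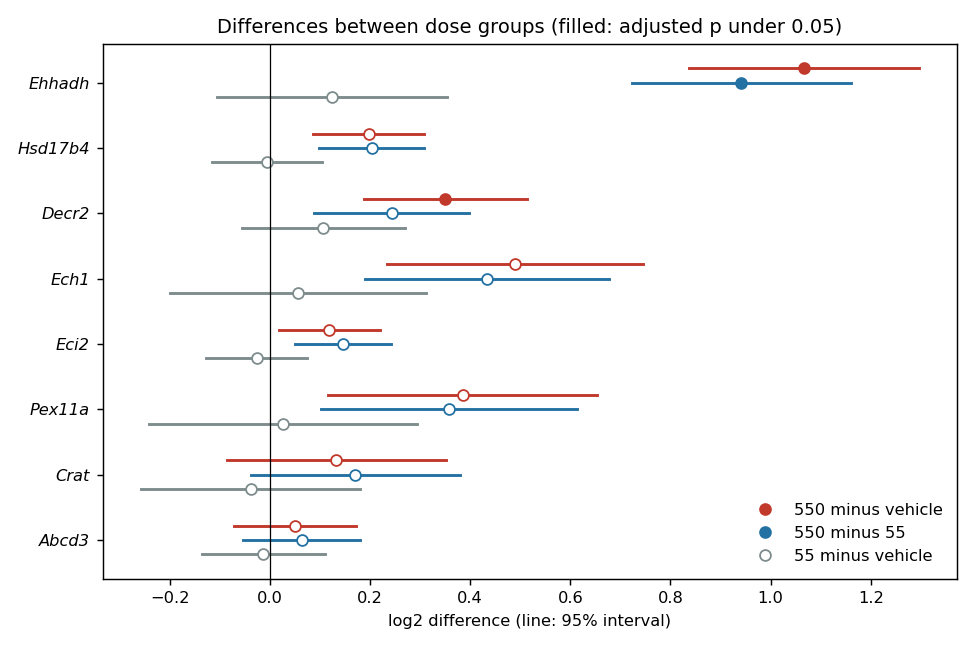
Log2 differences of the 8 genes (rows) for 550 minus vehicle, 550 minus 55 and 55 minus vehicle, in mg/kg, with 95% intervals (lines); filled points passed adjusted p under 0.05. The 55 mg/kg differences lie near 0, from -0.04 to 0.12, and those of 550 mg/kg are all positive.

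Since the 4 lower doses showed no member call, 550 mg/kg was also set against the average of the 5 other group means, a comparison chosen after these values were seen. It uses 29 arrays in place of 5 on one side. By it 6 of the 8 genes rose and none fell, where 1.68% of all probe sets rose and 1.03% fell. Ehhadh was higher by 0.95 ± 0.08 (adjusted p = 3.6e-09) and Decr2 by 0.33 ± 0.06 (adjusted p = 6.1e-04). The 4 genes that had missed the threshold against vehicle and passed here were Ech1 (0.48 ± 0.09, adjusted p = 0.0020), Pex11a (0.44 ± 0.10, adjusted p = 0.0075), Hsd17b4 (0.20 ± 0.04, adjusted p = 0.0023) and Eci2 (0.15 ± 0.04, adjusted p = 0.019). Crat (0.17 ± 0.08, adjusted p = 0.34) and Abcd3 (0.04 ± 0.04, adjusted p = 0.81) did not pass. The sizes were close to those against vehicle, and the standard errors were smaller.

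A slope on dose rank, from 0 for vehicle to 5 for 550 mg/kg, was called for Ehhadh alone (0.15 ± 0.03 log2 units per rank, adjusted p = 0.020), where 0.0966% of probe sets had a called rise and 0.0741% a called fall. It was lost when any 1 array at 550 mg/kg was left out (highest adjusted p = 0.076). The Ehhadh means were 10.79 in vehicle, 10.99, 10.90, 10.95 and 10.92 from 0.05 to 55 mg/kg, and 11.86 at 550 mg/kg. The slope therefore does not stand for a rise at each rank.

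The genes whose dose profile was most like that of Ehhadh were ranked by the root mean square difference between their 5 dose-minus-vehicle differences and those of Ehhadh, among 14216 genes. The 5 closest were Acot2 (0.09 log2 units), Eci1 (0.10), Abcc3 (0.10), Aig1 (0.13) and Cdk1 (0.16). Each gene was ranked on its brightest probe set alone. Acot2 has 3 probe sets, and Eci1 and Aig1 have 2 each. Those of Eci1 disagree, as given below, and the dimmer ones of Acot2 and Aig1 are not given here. Acot2 encodes a mitochondrial acyl-CoA thioesterase and Eci1 a mitochondrial enoyl-CoA isomerase. Abcc3 is an export pump, Aig1 a hydrolase of fatty acid esters of hydroxy fatty acids, and Cdk1 the kinase of mitotic entry. At 550 mg/kg they differed from vehicle by 1.06, 0.96, 1.06, 0.89 and 0.84, and all except Cdk1 (adjusted p = 0.10) were called. Among the other members Ech1 was nearest to Ehhadh, at rank 33, then Decr2 at rank 84 and Pex11a at rank 136, and Abcd3 was farthest at rank 3727. No overlap or test is drawn from this ranking, which shares the vehicle arrays throughout.

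The other peroxisomal genes were taken list by list, beside the 0.354% of all probe sets that rose and the 0.145% that fell. Of 19 measured genes of fatty acid import, oxidation and release in the peroxisome (23 listed), 1 rose and none fell at 550 mg/kg, with a median of 0.08 and a range of -0.43 to 0.29. At an unadjusted p under 0.05, 4 of the 19 were higher and 1 was lower. The gene that rose was Slc27a2, a very long-chain acyl-CoA synthetase and fatty acid transporter, at 12.98 ± 0.04 (SD, n = 6) against 12.77 ± 0.02 in vehicle (SD, n = 5), a difference of 0.20 ± 0.04 (adjusted p = 0.0070). None of 15 measured peroxins and fission factors (18 listed), which build and divide the organelle, passed in limma, with a median of 0.05. Of these 15, 1 had an unadjusted p under 0.05, Pex7, the import receptor of the second targeting signal (0.12 ± 0.06, adjusted p = 0.57). None of 23 measured other peroxisomal proteins (25 listed) passed either, and 2 had a higher and 2 a lower value at an unadjusted p under 0.05. Their smallest p belonged to Agxt, the glyoxylate-detoxifying transaminase, with -0.36 ± 0.10 (adjusted p = 0.12). Over all probe sets 4.45% were higher at an unadjusted p under 0.05.

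The mitochondrial pathway and the PPARalpha targets outside the peroxisome are given beside these. Of 22 measured mitochondrial beta-oxidation genes (24 listed), 3 rose and none fell at 550 mg/kg, against the same 0.354% and 0.145% of all probe sets, with a median of 0.14. At an unadjusted p under 0.05, 14 of the 22 were higher and 1 was lower. They were Eci1 (0.96 ± 0.12, adjusted p = 1.7e-05), Acat1, the acetoacetyl-CoA thiolase (0.40 ± 0.07, adjusted p = 0.0016), and Decr1, the mitochondrial dienoyl-CoA reductase (0.33 ± 0.06, adjusted p = 0.0041). The second probe set of Eci1 differed by -0.09, so its probe sets disagree. Decr1 and Decr2, the mitochondrial and peroxisomal reductases, thus differed from vehicle by 0.33 and 0.35. The isomerases were less alike, with 0.96 for the brighter probe set of Eci1 and 0.12 for Eci2. Of 20 measured Cyp4a and other PPARalpha targets (21 listed), 3 rose and none fell, with a median of 0.11, and 7 were higher and 3 lower at an unadjusted p under 0.05. They were the thioesterases Acot1 (3.16 ± 0.43) and Acot2 (1.06 ± 0.13) and the fatty acid hydroxylase Cyp4a1 (0.85 ± 0.14), with adjusted p from 7.0e-06 to 8.0e-04. Whether the lists differ from one another was not tested.

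**Figure D4:**
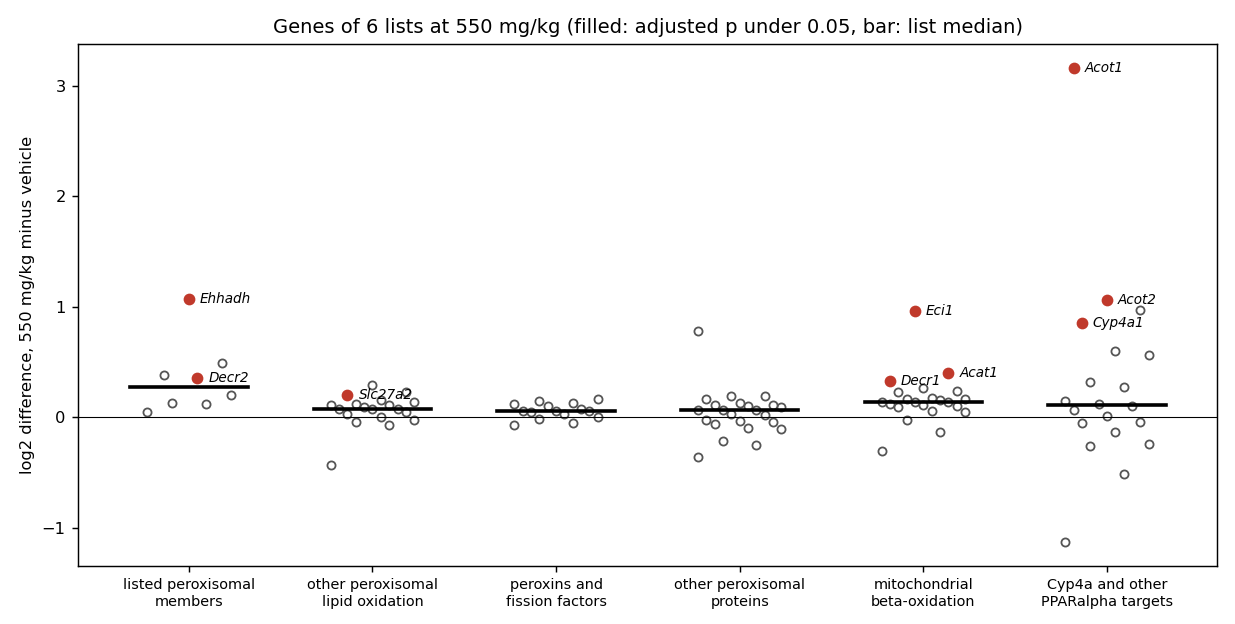
Log2 difference of 550 mg/kg minus vehicle for each measured gene of 6 lists, 1 point a gene, with the list median as a bar; filled and named points passed adjusted p under 0.05. The medians are 0.27 for the listed members and 0.08, 0.05, 0.07, 0.14 and 0.11 for the other lists from left to right.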

How the data were processed

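Liver RNA of 35 arrays was profiled on single-colour 3' expression arrays. The authors deposited 1 log2 value for each probe set. Per the submitters' processing notes, RMA and affy were used; versions, chip definition and filters: not given in the sources used here. RMA by its usual definition includes quantile normalisation, which hides a shift common to most genes. Of 31099 probe sets in all, 57 were Affymetrix controls and the other 31042 entered the fit. GEO's platform annotation names 20826 with 1 symbol. Acaa1a had no such probe set and has no value here. Groups and replicate numbers came from the sample titles.

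The linear model of limma 3.58.1 under R 4.3.3 (lmFit, then eBayes) estimated a mean for each group from the 35 arrays together, and tests were two-sided; the study's design text names another linear model package. The median standard error at 550 mg/kg against vehicle was 0.085, and the number of arrays limits the precision. Named genes were all members, up to 4 called genes with the largest change in each of 5 other lists or its gene with the smallest p, and the 5 genes most like Ehhadh. The members and lists were chosen with earlier results of these data known. The fit was tested on simulated data. Alternatives were a filter on the 40% dimmest probe sets, array medians, cyclic loess, other variance settings, array weights, fitting 2 groups, the replicate block, leaving out arrays, the mean of a gene's probe sets and a 1.5-fold minimum. Figures used Python 3.11.15 with matplotlib 3.10.9.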

Additional observations from a re-analysis of the deposited data

Results flagged for a closer look

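In 2 groups, both of Hsd17b4, the gap between an extreme array and its nearest neighbour was large for the range of the group. At 5.50 mg/kg replicate 6 was the highest at 11.71, with the next array at 11.62 and the lowest at 11.57. At 55 mg/kg replicate 6 was the lowest at 11.48, with the next array at 11.61 and the highest at 11.68. In all 54 combinations of probe set and group were checked, and chance marks about 1 in 20 of them. Both arrays enter the comparison of 550 mg/kg with the 5 other groups, in which Hsd17b4 passed (adjusted p = 0.0023). Leaving out replicate 6 at 55 mg/kg gave 0.18 for 550 against 55 mg/kg (adjusted p = 0.168).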

How the results depend on the processing

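The count of members called at 550 mg/kg against vehicle was 2. It was 3 without the 40% dimmest probe sets, 3 with trend and robust eBayes and 3 with the mean of a gene's probe sets. It was 1 with only the 2 groups fitted, 1 with a 1.5-fold minimum and 6 against the 5 other groups (chosen after seeing the data), and ran from 1 to 3 when 1 array was left out. With the replicate number as a block it was 1 (115 against 155 probe sets in all). For 550 against 55 mg/kg the count was 1, and it was 2 without the 40% dimmest probe sets, 2 with trend and robust eBayes, 2 without variance moderation, 2 with only these groups fitted, 2 with array weights and 2 with the mean of a gene's probe sets. It ran from 1 to 2 without single arrays (2 without replicate 3 or 4 of 550 mg/kg). The trend count of 1 was 2 with array weights and ran from 0 to 1 without single arrays; it was not fitted on 2 groups. The causes of these changes were not tested. The counts at the 4 lower doses were 0 under all alternatives run. No called difference changed sign. Same-numbered arrays of different groups did not deviate together (median correlation -0.009 over 85 pairs), and 4 of 35 arrays correlated best with their own number. The block changed no other member count. After subtraction of array medians and after cyclic loess, the median difference of all probe sets between 550 mg/kg and vehicle was -0.008 and -0.002.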

Other observations

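The members varied together only loosely from array to array within a dose. After subtraction of group means, 23 of the 28 pairs of members had a positive correlation over the 35 arrays, with a median Pearson r of 0.28, against 0 over all pairs of genes. The relation of Decr2 and Crat was the single pair of the 28 that passed on both measures (r = 0.53, permutation p = 0.0017, adjusted p = 0.039; Spearman's rho = 0.53, permutation p = 0.0024, adjusted p = 0.033). Without the 2 arrays farthest from the median of Decr2 its r was 0.46, and 1.03% of all gene pairs had an r at least as high. Ehhadh and Pex11a had an r of 0.15 (permutation p = 0.48; Spearman's rho = 0.04, permutation p = 0.85), and -0.07 without the 2 arrays farthest in Ehhadh. The arrays share their amplification and normalisation steps, whose part was not tested.

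The spread of Pex11a differed among the groups. The SD of its brighter probe set was 0.20 in vehicle (n = 5), 0.32 at 0.05, 0.29 at 0.55, 0.25 at 5.50, 0.09 at 55 and 0.13 at 550 mg/kg (n = 6 each). That of its dimmer probe set was 0.24 in vehicle, 0.41 at 0.05, 0.25 at 0.55, 0.32 at 5.50, 0.11 at 55 and 0.12 at 550 mg/kg. At 0.05 mg/kg both probe sets were highest in replicate 3, at 8.76 and 6.55, and the same group held the highest Ech1 value outside 550 mg/kg, 11.06 in replicate 1. These spreads were not tested.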
